A study of Mus musculus with 78 samples.

Results

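Dorsal hippocampus libraries of 12 mice were compared by genotype, 6 with a constitutive loss of Acss2 (KO) and 6 without it (WT). They are the columns whose title names that region in the male and the female count table, 12 of the 78 libraries of the series. The KO group held males 1, 2 and 10 with females 4, 5 and 6, and the WT group held males 3, 12 and 13 with females 11, 23 and 24, by mouse number. All were single-housed adults on the C57BL6/J strain, and every mouse of both genotypes had drunk ethanol in the drinking in the dark paradigm, a model of binge-like intake. Per the labels, 1 week of habituation to bottles came first, then 3 sessions of 2 h and 1 of 4 h with 15% ethanol beside water. A further week of sessions offered ethanol as the single fluid. The KO was whole-body and made with CRISPR/Cas9, and founders were backcrossed for 3 generations. No ethanol-free mice are among the samples used here, so the comparison is between genotypes of drinking mice. The male and female libraries were deposited in separate tables, so sex and table cannot be told apart. They were fitted together with the table as a covariate, and the fit was repeated without mouse 23, whose library was high in choroid plexus genes.

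ACSS2 joins acetate to coenzyme A in the cytosol and nucleus, giving acetyl-CoA. Ethanol is oxidised, mainly in the liver, to acetaldehyde and then to acetate, which enters the brain from the blood. Acetyl-CoA is the donor for histone acetylation and a building block of fatty acids and sterols. The dorsal hippocampus, with its dentate gyrus and CA fields, serves spatial and contextual memory, which includes memory of places where a drug was taken.

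The deletion was made with a pair of guides in introns before exon 3 and after exon 7 of Acss2, per the labels. Acss2 lies on the plus strand of chromosome 2, at chr2:155517948-155585724 in GRCm38. The labels do not say which transcript numbers the exons. In the GENCODE M21 transcript Acss2-201, which is 2931 nt long with 2103 coding nt, exons 3 to 7 span chr2:155549191-155550469. They hold 460 nt, all of it coding and 15.7% of the transcript, and 460 leaves a remainder of 1 when divided by 3. The first and last exon of that stretch are shown because they bound the deletion as designed, if the labels number exons as Acss2-201 does. Capitals mark the exon and lower case the adjoining bases of the neighbouring exon, on the plus strand.
Exon 3, chr2:155549191-155549282: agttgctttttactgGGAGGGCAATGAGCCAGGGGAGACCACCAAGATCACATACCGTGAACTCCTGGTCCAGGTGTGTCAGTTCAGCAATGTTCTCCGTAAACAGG
Exon 7, chr2:155550355-155550469: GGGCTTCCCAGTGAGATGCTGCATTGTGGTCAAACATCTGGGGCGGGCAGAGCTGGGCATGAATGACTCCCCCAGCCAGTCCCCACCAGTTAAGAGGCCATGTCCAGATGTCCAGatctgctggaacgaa

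The 12 libraries held 4454420 to 8607138 counts, and levels are given as CPM, a gene's count relative to its library's total. A floor of 3 counts, taken as the smallest readable value, was 0.349 to 0.673 CPM. Libraries of the same group differed by 7.61 to 81.2 in chi-square per gene over 12 pairs, more than sampling noise gives. Xist reached at most 2.23 CPM in males and was 492 to 868 CPM in females. Ddx3y was 48.1 to 70.9 CPM in males and at most 0.268 CPM in females, so all 12 libraries matched their labelled sex. The titles tie each library to 1 mouse.

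The libraries differed in what tissue they held. Summed over a list of 23 choroid plexus genes, which mark the epithelium that makes cerebrospinal fluid, 9 libraries had 78.3 to 168 CPM. Male KO mouse 1 had 1173 CPM, male WT mouse 3 had 1478 CPM and female WT mouse 23 had 5402 CPM. In mouse 23 all 23 choroid plexus genes and all 21 oligodendrocyte genes were at their highest of the 12 libraries, and 12 of the 16 dentate granule cell genes were at their lowest. Its summed level of dentate granule cell genes was 684 CPM and its CA1 pyramidal cell sum 1400 CPM. The other 11 had dentate sums of 1079 to 3290 CPM and CA1 sums of 2207 to 3081 CPM, so the library labelled dorsal hippocampus of mouse 23 was low in the defining markers of its label. Its sum of striatal projection neuron genes, 442 CPM, lay within the 372 to 447 CPM of the other 11. Male WT mouse 13 was the lowest of these 11 for dentate genes. Along the main axis of variation among the 12 libraries, which held 43.7% of the variance, mouse 23 was farthest from 0. In bulk tissue, fewer cells of a type and less RNA per cell cannot be told apart.

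**Figure D1:**
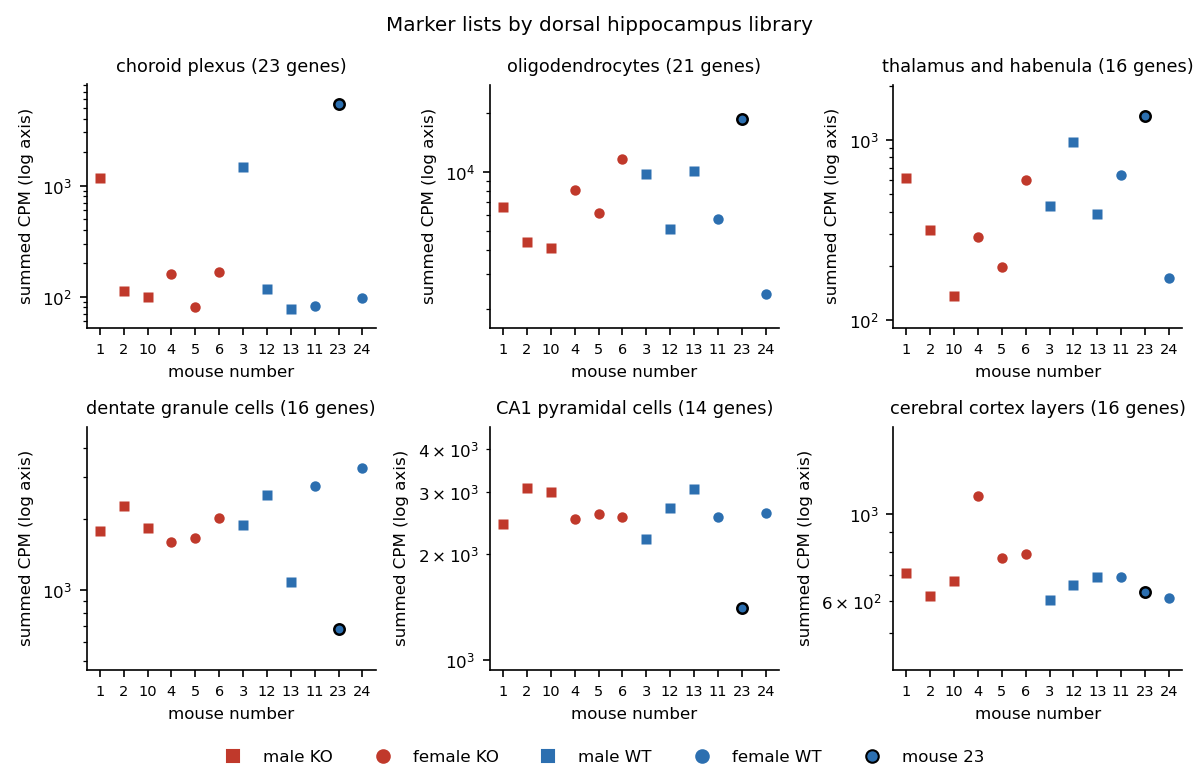
Summed CPM of 6 marker lists (log axis) for each of the 12 libraries, ordered by genotype and sex along the mouse number. Mouse 23, outlined in black, is highest in choroid plexus and oligodendrocyte genes and lowest in dentate and CA1 genes, and mice 1 and 3 follow in choroid plexus genes.

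Acss2 mRNA was strongly reduced in all 6 KO libraries. Its lowest, median and highest levels were 4.47, 6.91 and 8.51 CPM in KO and 42.8, 50.8 and 69.6 CPM in WT. Every KO library was far below every WT library, and within WT mouse 23 was the highest. The means were 6.81 ± 1.51 CPM (SD, n = 6) in KO and 53.2 ± 9.51 CPM (SD, n = 6) in WT, so the KO mean was 12.8% of the WT mean. On the log2 scale KO differed from WT by -2.95 ± 0.16 (SE), and the 95% interval was -3.28 to -2.61, with an adjusted p by edgeR of 1.39e-06. Without mouse 23 it was -2.85 ± 0.15 (SE), with an adjusted p of 5.11e-07. The reads left in KO were counted per gene, so the exons they came from are not shown. Acss2 shares 395 of its 10163 annotated exonic bases with exons of Gss and 197 with exons of Ggt7, both on the opposite strand, and the library kit does not mark strand.

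The other members of the acetyl-CoA synthetase family were not called. Acss1, the mitochondrial enzyme that also uses acetate, ranged from 22.2 through a median of 27.2 to 31.4 CPM in KO and from 17.4 through 28.9 to 31.6 CPM in WT. KO over WT it had a log2 ratio of 0.02 ± 0.13 (SE), and its 95% interval was -0.27 to 0.31. The KO range of Acss1 lay within its WT range. Acss3, a mitochondrial family member, was low, with a median of 2.25 CPM in KO and 1.97 CPM in WT, and its interval of -1.08 to 0.95 reaches past a 2-fold change in 1 direction. Per kilobase of all annotated exonic bases, the WT median was 5.0 CPM for Acss2, 7.01 CPM for Acss1 and 0.274 CPM for Acss3. The KO median was 0.680 CPM for Acss2 and 6.59 CPM for Acss1. That length joins the exons of every transcript, 10163 bases for Acss2 against 2931 nt in Acss2-201, so these values do not rank the genes.

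**Figure D2:**
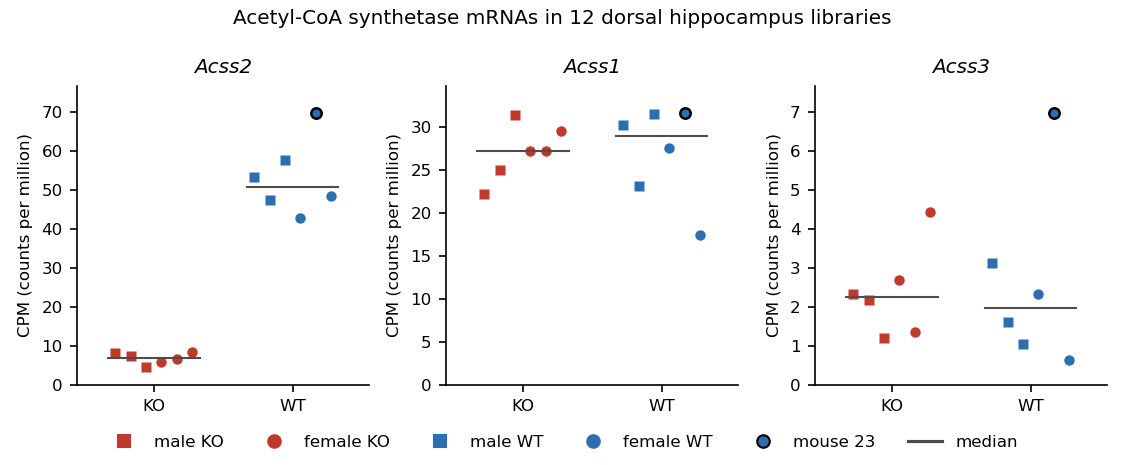
CPM of Acss2, Acss1 and Acss3 in each of the 6 KO and 6 WT libraries, with squares for males, circles for females and a line at the median. The KO libraries lie at 4.47 to 8.51 CPM for Acss2, below all WT libraries at 42.8 to 69.6 CPM, and the groups overlap for Acss1 and Acss3.

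Beyond Acss2, no gene that passed the filter on low counts reached the adjusted threshold of 0.05 in the dorsal hippocampus. With the tables pooled, 1 of 14485 genes tested was called (0.00690%), and without mouse 23 it was 1 of 14677 (0.00681%). In both fits that gene was Acss2. At an unadjusted p under 0.05, 412 genes (2.84%) were found with the tables pooled, 222 of them higher and 190 lower in KO. Without mouse 23 there were 587 (4.00%), 424 higher and 163 lower. DESeq2's Wald test on the same libraries also called 1 gene. Without the filter on low counts edgeR called 2 genes in the pooled fit and 220 without mouse 23, 153 higher and 67 lower. The smallest adjusted p of any other gene in the pooled fit was 0.999948.

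The intervals show how closely each gene was measured. They are not adjusted for the number of genes tested, so they do not give the size of change needed for a call. The median SE over all genes was 0.15 on the log2 scale, and the 95% interval lay within a 2-fold change for 89.3% of the tested genes and within 1.5-fold for 69.0%. A p that misses the threshold does not show that a gene kept its level, so list results are given with their intervals. The median log2 fold change over all genes tested was -0.02, and 43.6% of them had a value above 0.

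**Figure D3:**
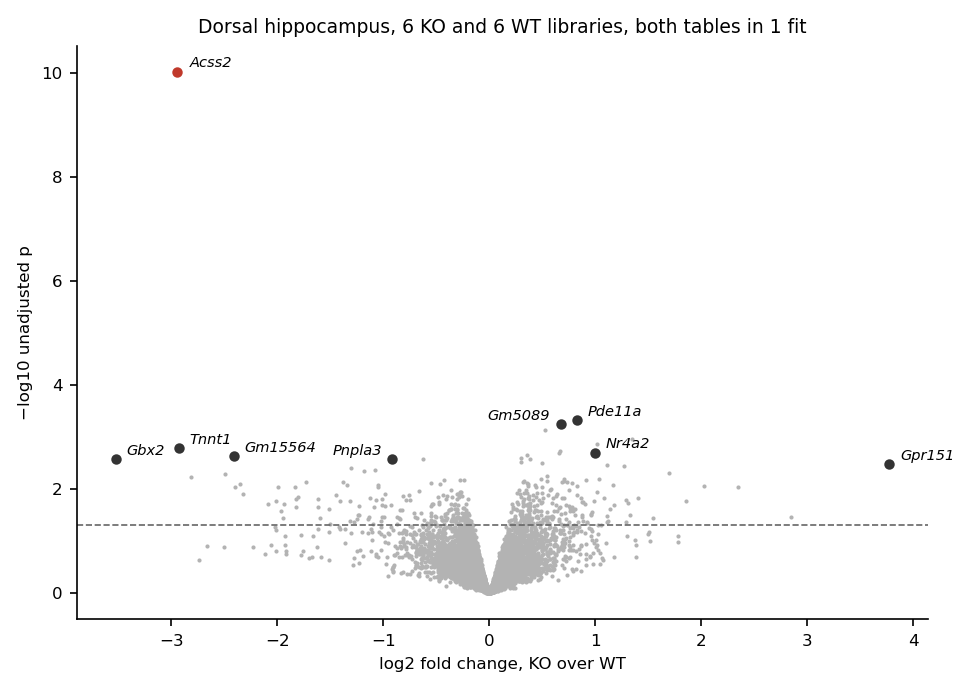
Log2 fold change of KO over WT against -log10 of the unadjusted p for 14485 genes, with a dashed line at an unadjusted p of 0.05. Acss2, in red, at -2.95 is far above the remaining genes, and Gbx2 at -3.52 and Gpr151 at 3.77 have wider fold changes but larger p.

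Among genes that supply or use acetyl-CoA, Acss2 was the single member called. The list held 33 genes, of which 32 were tested. The other 31 had log2 fold changes from -0.20 for Coasy, which makes coenzyme A, to 0.11 for Pdk1, a kinase that restrains pyruvate dehydrogenase. None of these 31 had an unadjusted p under 0.05. Acly, which cleaves citrate into cytosolic acetyl-CoA and so serves the same pool as ACSS2, ranged from 133 through 167 to 182 CPM in KO and from 150 through 166 to 174 CPM in WT. KO over WT it had a log2 ratio of 0.00 ± 0.09 (SE), and its interval was -0.19 to 0.19. The KO and WT libraries of Acly overlapped. Crat, the carnitine acetyltransferase that carries acetyl groups between compartments, had -0.13 ± 0.08 (SE), and Slc33a1, the acetyl-CoA transporter of the endoplasmic reticulum, had -0.13 ± 0.08 (SE). Pdha1, a subunit of the pyruvate dehydrogenase that makes mitochondrial acetyl-CoA, had 0.02 ± 0.08 (SE). Nat8l, which makes N-acetylaspartate, a store of acetate in neurons, had -0.13 ± 0.12 (SE). The 95% interval lay within 2-fold for 30 of the 32, the exceptions being Acss2 and Acss3. The list's median log2 fold change was -0.03, against -0.02 over all genes.

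Genes of ethanol and acetaldehyde oxidation gave no call. Of 13 listed, 9 were tested, and none had an unadjusted p under 0.05. Aldh2, the mitochondrial enzyme that turns acetaldehyde into acetate, had medians of 108 CPM in KO and 110 CPM in WT and a log2 fold change of -0.07 ± 0.15 (SE). Cat, the catalase that oxidises ethanol in the brain, had -0.09 ± 0.11 (SE). The member with the smallest p was the cytosolic aldehyde dehydrogenase Aldh1a1, at -0.33 ± 0.18 (SE). Its WT libraries ran from 92.9 through 113 to 222 CPM and its KO libraries from 90.1 through 98.5 to 123 CPM. Mouse 23 supplied the WT maximum, and without it the value was -0.11 ± 0.12 (SE). Aldh1b1, a mitochondrial paralog, had 0.24 ± 0.14 (SE). Among the carriers of acetate, lactate and ketones, 5 of 7 were tested and none had an unadjusted p under 0.05. Slc16a1, the transporter MCT1 of vessels and glia, had medians of 34.5 CPM in KO and 29.4 CPM in WT and a log2 fold change of 0.13 ± 0.16 (SE). Slc16a3, which encodes MCT4, had 0.43 ± 0.30 (SE) at a KO median of 1.76 CPM.

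The enzymes that write, erase and read histone acetylation gave small values. All 34 listed genes were tested and none was called. At an unadjusted p under 0.05 there was 1 of 34, the deacetylase Hdac8, near the 2.84% of all genes. Hdac8 ranged from 11 through 12.2 to 16.6 CPM in KO and from 12.9 through 16.2 to 20.8 CPM in WT. Its groups overlapped, and its log2 fold change was -0.30 ± 0.14 (SE), or -0.21 ± 0.13 (SE) without mouse 23. The acetyltransferases Ep300 and Crebbp, which act at enhancers, had 0.02 ± 0.16 (SE) and -0.06 ± 0.11 (SE). Hdac2, a deacetylase known to restrain hippocampal memory genes, had -0.09 ± 0.11 (SE). Sirt1, a deacetylase that can activate ACSS2, had -0.11 ± 0.14 (SE). The 95% interval was within 2-fold for all 34 and within 1.5-fold for 32.

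Sterol and fatty acid synthesis, which draws on cytosolic acetyl-CoA, was also without a call among 34 tested genes. The interval lay within 2-fold for all 34, and the median log2 fold change was -0.02. At an unadjusted p under 0.05 there was 1 of 34 with mouse 23, against 2.84% of all genes. Without that mouse there was 0 of 34, against 4.00%. Idi1, an isomerase of the mevalonate pathway, had -0.37 ± 0.17 (SE), and Srebf2, the factor that switches the pathway on, had 0.01 ± 0.09 (SE).

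**Figure D4:**
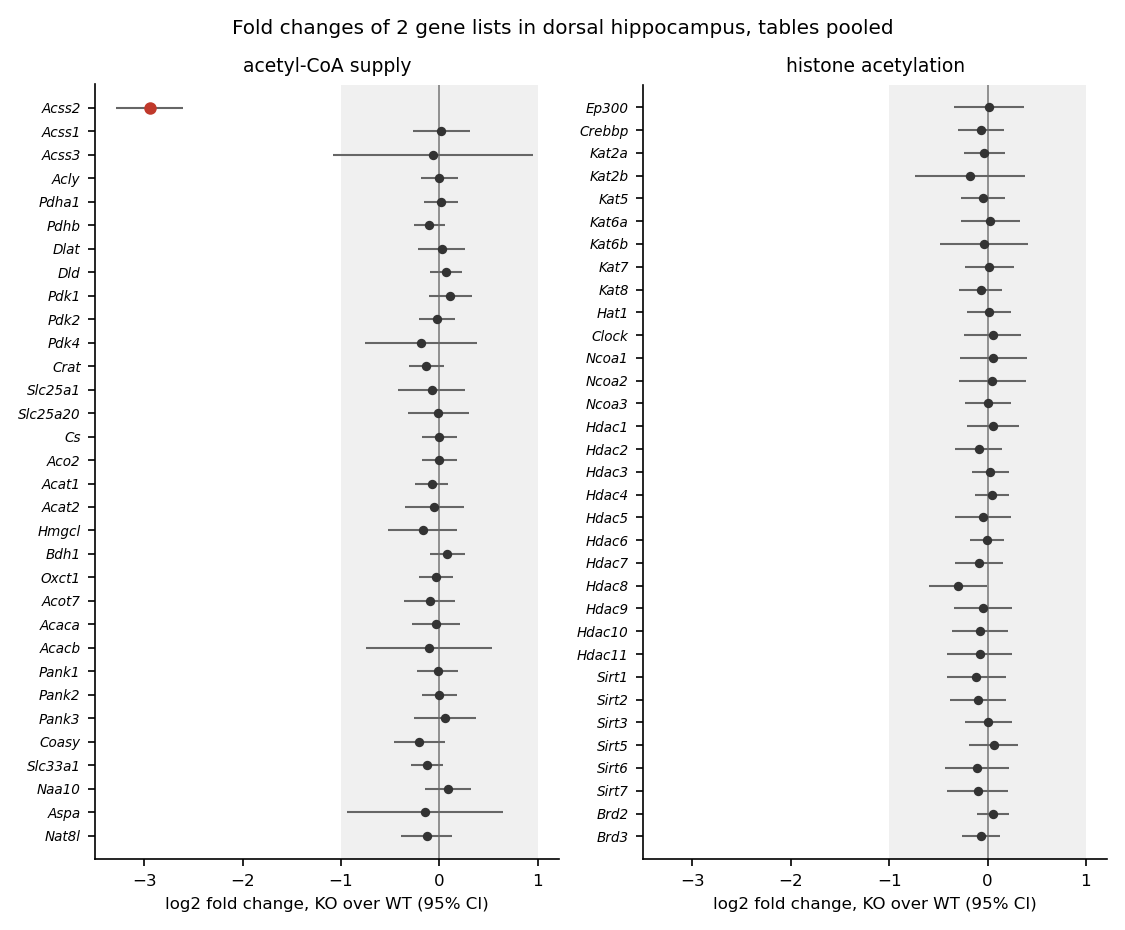
Log2 fold change of KO over WT with its 95% confidence interval for the 32 tested genes of acetyl-CoA supply and 33 of the 34 of histone acetylation, with the band of a 2-fold change shaded. Acss2, in red, lies far outside the band, and the intervals of all others except Acss3 lie inside it.

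Activity-induced transcription factors, the genes that neurons switch on within minutes of firing, gave no call in 19 tested members. Nr4a2, an orphan nuclear receptor of this group, had the smallest p of the list. It was the single member at an unadjusted p under 0.05, against 2.84% of all genes. Its levels ran from 39.7 through 57.2 to 118 CPM in KO and from 25.7 through 28.5 to 51.1 CPM in WT. The KO maximum was female mouse 4 and the WT maximum male mouse 13, and the groups overlapped. KO over WT the log2 ratio was 1.00 ± 0.25 (SE), its interval 0.45 to 1.54. By table Nr4a2 had 0.41 ± 0.24 (SE) in males and 1.58 ± 0.27 (SE) in females. The female minus male difference, 1.17 ± 0.41 (SE), was not called. Nr4a2 also marks deep cortical neurons, and mouse 4 had the highest sum of 16 cortical layer genes, 1107 CPM, against 603 to 791 CPM in the other 11 libraries. With the cortical score as a covariate the log2 fold change of Nr4a2 was 0.75, and with each of 4 other marker scores it was 0.89 to 1.02. Fos had -0.07 ± 0.35 (SE), Egr1 0.17 ± 0.20 (SE) and Npas4 0.37 ± 0.28 (SE). The interval lay within 2-fold for 16 of the 19 and within 1.5-fold for 6, so this list was measured less closely than the enzymes above.

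Of the 29 effector genes that follow such factors, all were tested and none was called. Dusp5, a phosphatase of nuclear ERK, was the 1 of 29 at an unadjusted p under 0.05, near the 2.84% of all genes. It had medians of 17 CPM in KO and 10.9 CPM in WT and a log2 fold change of 0.56 ± 0.26 (SE). Plk2, a kinase that weakens overactive synapses, had 0.29 ± 0.14 (SE). Arc, which drives removal of AMPA receptors, had 0.24 ± 0.23 (SE), and the growth factor gene Bdnf had -0.02 ± 0.27 (SE). The list's median was 0.07, and 20 of 29 values were above 0.

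Glutamate receptor and postsynaptic density genes, 31 tested, gave neither a call nor an unadjusted p under 0.05. Grin1, the obligatory NMDA receptor subunit, had medians of 525 CPM in KO and 526 CPM in WT and a log2 fold change of 0.04 ± 0.11 (SE). Grin2d, an NMDA subunit common in interneurons and thalamus, had -0.51 ± 0.27 (SE), with 32.7 CPM in mouse 23 against 8.20 to 22.1 CPM in the other WT libraries. The metabotropic receptor Grm3 had 0.20 ± 0.11 (SE).

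Among 13 GABA-A receptor genes, Gabrd had the smallest p. It encodes the delta subunit of extrasynaptic receptors, which carry tonic inhibition in dentate granule cells and have been studied as targets of low ethanol doses. Its levels ran from 30.7 through 37.3 to 39.8 CPM in KO and from 36 through 44.8 to 64.3 CPM in WT. Male WT mouse 13 lay inside the KO range, the other 5 WT libraries lay above it, and male WT mouse 12 was the highest. KO over WT the log2 ratio was -0.36 ± 0.13 (SE), its interval -0.63 to -0.08 and its unadjusted p 0.0143, and it did not pass the adjusted threshold. It was -0.38 ± 0.13 (SE) without mouse 23. Dentate granule cell genes had a summed median of 1808 CPM in KO and 2211 CPM in WT, and with their score as a covariate the log2 fold change of Gabrd was -0.35. Gabrg3 had 0.29 ± 0.19 (SE), with its KO maximum of 27.4 CPM in mouse 4.

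Mitochondrially encoded mRNAs, which code for core subunits of the respiratory chain, had different medians in the male and the female table. Summed over 13 genes, male KO libraries had 49779 to 55521 CPM and male WT libraries 35583 to 38239 CPM, without overlap. Female KO libraries had 41277 to 56319 CPM and female WT libraries 36411 to 67741 CPM, with mouse 23 the highest of all. Among males 7 of 9 tested members were higher in KO at an unadjusted p under 0.05 against 3.53% of all genes, and none passed the adjusted threshold. In the female table none of 11 did, and the medians of the log2 fold changes were 0.59 in males and -0.11 in females. Pooled, none of 11 had an unadjusted p under 0.05, at a median of 0.24. Without mouse 23, 7 of 11 were higher in KO at that p, against 4.00% of all genes with either sign, at a median of 0.35, and none was called. Pooled, mt-Nd2, a subunit of respiratory complex I, had 0.30 ± 0.18 (SE), and without mouse 23 it had 0.42 ± 0.16 (SE). The difference between the tables was not called for any of these genes.

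Glycolysis and the TCA cycle were measured closely and gave no call. All 37 tested genes had their 95% interval within 2-fold, 36 of them within 1.5-fold, and none had an unadjusted p under 0.05. Dlst, a subunit of the oxoglutarate dehydrogenase complex, had -0.12 ± 0.07 (SE), and the glycolytic enzyme Eno1 had -0.16 ± 0.11 (SE). Of 17 circadian clock genes, 1 had an unadjusted p under 0.05, against 2.84% of all genes. That gene was Rora, a nuclear receptor that is also abundant in thalamus. It ran from 24 through 36.9 to 75.0 CPM in KO and from 30.3 through 78.5 to 157 CPM in WT, highest in mice 23 and 12, and its log2 fold change was -1.07 ± 0.38 (SE). Npas2, a partner of the clock factor BMAL1, had 0.37 ± 0.20 (SE).

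Genes next to the deletion gave no call. Of 28 listed neighbours on chromosome 2, 22 were tested, with log2 fold changes from -0.27 ± 0.14 (SE) for Myh7b, a myosin heavy chain, to 0.11 ± 0.08 (SE) for Phf20. None had an unadjusted p under 0.05. Gss, the glutathione synthetase that overlaps the end of Acss2 at chr2:155563181-155592810, had medians of 22.2 CPM in KO and 25 CPM in WT and a log2 fold change of -0.15 ± 0.09 (SE). Ggt7, which overlaps its start at chr2:155490379-155518237, had -0.12 ± 0.08 (SE). The interval lay within 2-fold for all 22.

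Since Acss2 alone was called, the genes with the next smallest p are given as values that did not pass. The KO and WT ranges lay apart for 14 of the 14485 genes (0.0967%), Acss2 among them. Pde11a, a phosphodiesterase that degrades cyclic nucleotides and is concentrated in the hippocampal formation, had the smallest p after Acss2. It ran from 5.39 through 8.44 to 10.1 CPM in KO and from 3.51 through 4.44 to 6.49 CPM in WT. KO over WT this was a log2 ratio of 0.83 ± 0.18 (SE) at an unadjusted p of 0.00048. Male WT mouse 13 reached into the KO range. A second phosphodiesterase gene, Pde1a, which is calcium-dependent, ran from 138 through 159 to 188 CPM in KO and from 76.0 through 94.3 to 168 CPM in WT. Mouse 13 was again the WT library inside the KO range, and the log2 fold change was 0.67 ± 0.17 (SE).

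Transcription factors were among the genes next in p. Sox5, a factor of deep cortical neurons and glia, had 19.9, 23.5 and 38.4 CPM as the lowest, median and highest value in KO and 10.9, 17 and 19.6 CPM in WT, apart by a small margin, with 0.66 ± 0.17 (SE). Sox1, a factor of neural progenitors, and Zfp703, a transcriptional repressor, had 0.39 ± 0.10 (SE) and 0.49 ± 0.14 (SE), and in both the groups overlapped only through mouse 23 among WT. Among markers of GABA neurons, Erbb4, a neuregulin receptor, had 0.43 ± 0.14 (SE) and Ndnf, a marker of neurogliaform cells, 0.45 ± 0.15 (SE). Of the 23 GABA neuron genes tested, 4 were higher and 1 lower in KO at an unadjusted p under 0.05, against 2.84% of all genes. Without mouse 23 the counts were 7 higher and 0 lower, against 4.00%, and none passed the adjusted threshold in either fit.

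Smaller fold changes with ranges apart included that of Scg3, a secretory granule protein. Scg3 had 276, 306 and 347 CPM in KO and 240, 250 and 264 CPM in WT, with a log2 fold change of 0.30 ± 0.08 (SE). Lrrk2, a kinase known from Parkinson disease, had 0.30 ± 0.08 (SE), and Ccdc148, a coiled-coil gene, had 0.36 ± 0.09 (SE). Pnpla3, a lipase of lipid droplets whose liver expression follows SREBP1c, had lower values in KO. It ran from 0.898 through 1.64 to 2.30 CPM in KO and from 2.52 through 3.19 to 3.60 CPM in WT, close to the 3-count floor. No KO library reached a WT library, and the log2 ratio was -0.92 ± 0.25 (SE) at an unadjusted p of 0.00271. Hhatl, an acyltransferase-like gene, had -0.63 ± 0.17 (SE), with overlapping groups. Gm5089, Gm10754, annotated as a long noncoding RNA, and Gm15536, annotated as a processed pseudogene, had 0.68 ± 0.15 (SE), 1.35 ± 0.33 (SE) and 1.01 ± 0.25 (SE), with ranges apart at 0.385 to 6.23 CPM. The ranges of Cog2, Ctdp1 and Taco1, named after their values were seen, were apart as well.

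**Figure D5:**
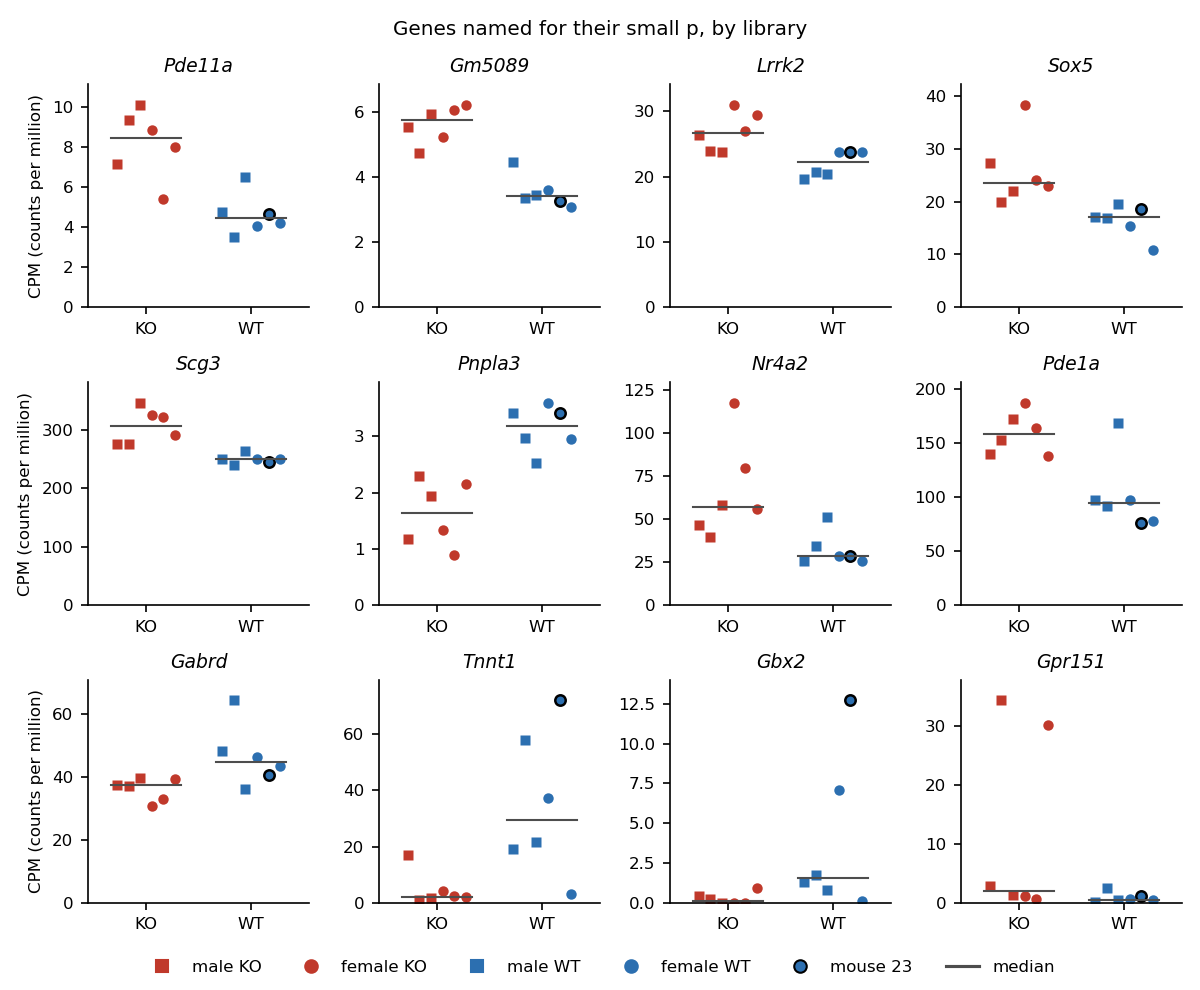
CPM of 12 named genes in each library, with squares for males, circles for females, a black outline for mouse 23 and a line at the median. Lrrk2, Sox5, Scg3, Gm5089 and Pnpla3 have KO and WT libraries apart, and Tnnt1, Gbx2 and Gpr151 are set by a few libraries.

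Genes of the thalamus and habenula, which lie next to the dorsal hippocampus, had some of the widest fold changes among the genes named here. Tnnt1, a troponin that marks thalamic neurons, ran from 1.08 through 2.14 to 16.9 CPM in KO and from 3.20 through 29.6 to 71.9 CPM in WT, with a log2 fold change of -2.93 ± 0.73 (SE), or -1.72 with the list's score as a covariate and -3.52 to -2.79 with each of 4 other marker scores. The WT libraries of mice 23, 12 and 11 were highest, at 71.9, 58.0 and 37.4 CPM, and that of mouse 24 was 3.20 CPM. Gbx2, a thalamic homeobox gene, had -3.52 ± 1.04 (SE), with 3 KO libraries at 0 and 12.7 CPM in mouse 23. Gpr151, a receptor of the habenula, had 3.77 ± 1.11 (SE). It was 34.3 CPM in male KO mouse 2 and 30.1 CPM in female KO mouse 6, and at most 2.77 CPM in the other 10 libraries, and without mice 2 and 6 its log2 fold change was 0.72. With the list's score as a covariate Gpr151 had 5.42, and with the 4 other scores 3.73 to 4.09. Tnnt1 and Gpr151 are members of that list, so their own levels enter its score and the fits with it cannot separate gene from list. Tac2, another habenular gene, had 2.35 ± 0.77 (SE). Over the list of 16 thalamus and habenula genes, 7 were lower and 2 higher in KO at an unadjusted p under 0.05, against 2.84% of all genes. Without mouse 23, 5 were lower and 2 higher, against 4.00%, and none passed the adjusted threshold in either fit. Its summed level was 135 to 612 CPM in KO and 172 to 1353 CPM in WT, or at most 974 CPM in WT without mouse 23. The part of the dissection in these values was not tested. Gm15564, annotated as antisense and so uncertain in libraries that do not mark strand, had -2.41 ± 0.65 (SE), with 16.4 CPM in mouse 13 against at most 4.41 CPM elsewhere in WT.

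Without mouse 23 the genes next after Acss2 changed in part. Pde11a stayed among them, at 0.86 ± 0.19 (SE), as did Gm10754, Gm15564, Gm5089, Sox1, Sox5 and Tnnt1. The KO and WT ranges lay apart for 42 of 14677 genes (0.286%). Prelp, an extracellular matrix protein, had 0.47 ± 0.09 (SE) with an unadjusted p of 0.00022, against 0.31 ± 0.13 (SE) with mouse 23, whose 36.4 CPM was the WT maximum. B2m, the light chain of MHC class I, ran from 78.5 through 79.4 to 86.1 CPM in KO. Its WT libraries lay at 58.6 to 70.1 CPM except mouse 23 at 93.3 CPM. The log2 fold change of B2m was 0.26 ± 0.10 (SE) with mouse 23 and 0.35 ± 0.07 (SE) without it. Adcyap1, the neuropeptide PACAP, had 0.63 ± 0.44 (SE) with mouse 23 and 1.29 ± 0.29 (SE) without, and Necab2, a calcium-binding protein of CA2 cells and the habenula, had 0.55 ± 0.19 (SE) and 0.69 ± 0.18 (SE). The highest KO libraries for Necab2 were mice 6 and 2, at 107 and 103 CPM. KO mouse 4, at 44.3 CPM, was below every WT library. By table Necab2 had 0.81 ± 0.15 (SE) in males and 0.30 ± 0.31 (SE) in females. Rab38, Fyb2, Fbxo5, Nxph4, Cfap61 and Galntl6 were also named by the rule in that fit, with values from 0.71 for Galntl6 to 1.97 for Fyb2. Galntl6 aside, the lowest WT library of each had 0 to 0.385 CPM, at or under the 3-count floor. Fyb2 had its KO maximum of 7.18 CPM in male mouse 2, with at most 3.28 CPM in the other KO libraries. None of these genes passed the adjusted threshold.

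Cell-type marker lists gave no call, and several depended on mouse 23. Dentate granule cell genes had 2 of 16 values above 0 with mouse 23 and 0 of 16 without it, with 13 of 16 in males and 1 of 16 in females. All 21 oligodendrocyte genes had a log2 fold change below 0 with mouse 23, at a median of -0.28, and 18 of 21 were above 0 without it, at a median of 0.11. Among males 15 of 21 were lower in KO at an unadjusted p under 0.05, against 3.53% of all genes, with a median of -0.62, and in the female table none was, with a median of 0.04. Male KO libraries had 4068 to 6592 CPM of these genes and male WT libraries 5104 to 10098 CPM. All 23 choroid plexus genes had values below 0 with mouse 23, at a median of -1.66, and 12 of 23 were above 0 without it. These genes are what singled mouse 23 out, so their change on leaving it out was fixed in advance and tests nothing. CA1 pyramidal cell genes had a median of 0.48, or 0.14 in males and 0.73 in females, with Dkk3 at 0.45 ± 0.19 (SE) and Man1a at 0.50 ± 0.22 (SE). The summed CA1 level had medians of 2572 CPM in KO and 2586 CPM in WT. Microglial genes had a median of 0.13, and 16 of 17 were above 0, or 8 of 17 in males and 17 of 17 in females, with P2ry12, a receptor of resting microglia, at 0.31 ± 0.13 (SE) and Cx3cr1 at 0.22 ± 0.10 (SE). The part of tissue composition in single-gene values was not tested beyond the covariate fits.

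By edgeR each table alone also called Acss2 and nothing else, and DESeq2 called 8 genes in the male and 9 in the female table, Acss2 included. The male table tested 13868 genes and called 1 (0.00721%), with 489 (3.53%) at an unadjusted p under 0.05. The female table tested 14142 and called 1 (0.00707%), with 273 (1.93%) at an unadjusted p under 0.05. The log2 fold change of Acss2 was -2.94 ± 0.21 (SE) in males and -2.96 ± 0.21 (SE) in females, and the difference between them was -0.02 ± 0.33 (SE). The direction of change was the same in both tables for 48.7% of 13754 genes tested in both. Of the 475 genes that reached an unadjusted p under 0.05 among males, 61.1% had the same direction among females, and of the 252 that did so among females, 65.9% had it among males. Apart from Acss2, 11 genes had an unadjusted p under 0.05 in both tables, which share no library, and all 11 had the same direction. They are 2.32% of the 475 genes of the males, where 1.83% of all genes tested in both had such a p among females. They are 4.37% of the 252 genes of the females, where 3.45% of all genes had such a p among males, so both shares are near the background. Named after their values were seen, these included Gm10754, Gm5089, Gng8, Pde11a, Sox5, Tac2 and Zfp703, higher in KO, and Rab37 and Tnnt1, lower in KO. Tac2 and Tnnt1 are in the thalamus and habenula list, and the part of the dissection in their agreement between tables was not tested.

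The female table depended on mouse 23. Without it 167 of 14327 genes were called, 58 higher and 109 lower in KO, with 2778 at an unadjusted p under 0.05. That fit rests on the WT mice 11 and 24 against 3 KO mice. Leaving out any of the other 5 female mice instead left no call, Acss2 included.

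The KO effect of no gene passed the adjusted threshold for a difference between the tables in edgeR's interaction test, with 0 called and 193 of 14485 (1.33%) with an unadjusted p under 0.05. The 3 smallest p belonged to Cplx3, Ube2cbp and Ppp1ccb. Cplx3, a complexin of deep cortical neurons and ribbon synapses, had a female minus male difference of 3.18 ± 0.57 (SE). It was 10.3 to 21.3 CPM in female KO and 1.54 to 4.81 CPM in female WT, and 4.23 to 5.06 CPM in male KO and 4.45 to 9.81 CPM in male WT. The 3 female KO libraries stood above all others, and mouse 4, highest for Cplx3, was also highest for the cortical layer list. Ube2cbp, linked to ubiquitin conjugation, had 2.27 ± 0.57 (SE), and Ppp1ccb had -1.25 ± 0.31 (SE). Ppp1ccb is annotated as a processed pseudogene, so its counts may be shared with its parent gene and are uncertain.

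The KO effect in dorsal hippocampus was set against that in ventral hippocampus and dorsal striatum of the same 12 mice. Both comparisons use the same dorsal hippocampus libraries. Some libraries of those regions went against their labels. Summed over 14 genes of striatal projection neurons, the libraries labelled dorsal striatum had 5645 to 11537 CPM in 10 mice, but 736 CPM in mouse 10 and 536 CPM in mouse 23. The library labelled ventral hippocampus of mouse 6 had 5169 CPM, against 345 to 471 CPM in the other 11. Acss2 was lower in KO in both regions too, without overlap, at 0.971 to 9.60 CPM in KO and 49.1 to 71.7 CPM in WT of ventral hippocampus, and at 5.10 to 7.82 CPM and 35.9 to 73.8 CPM in dorsal striatum. Its KO effect differed from dorsal hippocampus by 0.36 ± 0.31 (SE, dorsal minus ventral) and by -0.08 ± 0.23 (SE, hippocampus minus striatum). At 629635 to 1206013 counts per library, the Acss2 values of ventral hippocampus KO mice rest on few reads.

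No gene passed the adjusted threshold for a difference between regions in edgeR's interaction test among genes that passed the filter on low counts. Without that filter 129 were called against ventral hippocampus, with 19 differences above 0 and 110 below. Against ventral hippocampus, with 629635 to 1206013 counts per library, 481 of 13607 genes (3.53%) had an unadjusted p under 0.05. The smallest p belonged to Gk, the glycerol kinase, at 0.70 ± 0.17 (SE), Naaa, an amidase of N-acylethanolamines, at 0.85 ± 0.21 (SE), and Efhc2 at -3.38 ± 1.02 (SE). Efhc2 ran from 0 through 1.12 to 5.67 CPM in ventral hippocampus, few reads at that depth, so its value is uncertain. Without mouse 6 the count of calls stayed at 0, with 493 genes at an unadjusted p under 0.05. Against dorsal striatum, 313 of 15190 genes (2.06%) had an unadjusted p under 0.05, among them Gm20939 at -1.52 ± 0.36 (SE) and Sox6, a factor of interneurons and oligodendrocyte precursors, at 0.70 ± 0.18 (SE). Without mice 10 and 23 the count of calls was 0, with 459 at an unadjusted p under 0.05.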

How the data were processed

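RNA of 12 dorsal hippocampus samples was extracted with Trizol-chloroform, and poly(A) libraries were made from 300 ng with a NEBNext Ultra II kit, per the labels' protocols. The authors deposited raw read counts per gene, 1 table per sex. STAR 2.5.2a, SAMtools 1.1, HTSeq 0.6.1, DESeq2 and R 4.0.2 are named with the builds GRCm38 and mm10, per the submitters' processing notes. Their settings, annotation and filters are not given in the sources used here.

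Counts were tested in edgeR 4.0.16 (quasi-likelihood F-test, TMM, filterByExpr with a minimum count of 10 and a total of 15, Benjamini-Hochberg, threshold 0.05) in R 4.3.3, with the table as a covariate, and the fit was repeated without mouse 23. SEs and 95% intervals of log2 fold changes come from that fit. CPM is the count over the library total. A list's score, used as a covariate, is its mean log2(CPM + 1). Each sample is a separate mouse, per the labels. The floor of 3 counts covers counting error only.

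The members and lists were chosen with earlier results of these data known. The rule for named genes took Acss2 and, with and without mouse 23, up to 20 genes with adjusted p under 0.05 and ranges apart at a mean of 1 CPM or more, filled to 20 by smallest p. It added the 2 smallest p of each list, the 3 smallest of each interaction, and Xist and Ddx3y. Other list members are named for their role, and other genes in the text were chosen after their values were seen. A few genes that the rule names are not reported here. Of 569 listed symbols, 564 had a row. Coordinates, lengths, biotypes and exon sequences are from GENCODE M21 on GRCm38.

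In the region comparisons the same mouse gave both libraries, so its number pairs the samples by the labels. The correlations of paired deviations were -0.15 to 0.13 for ventral hippocampus (mean 0.037) and -0.24 to 0.21 for dorsal striatum (mean -0.038), over 12 mice each. Alternatives were DESeq2 1.42.0 and its size factors, no low-count filter, no table covariate, marker scores as covariates, a fit over 4 deeper regions, mouse as a block, and leaving out mice. The scores other than choroid plexus, and leaving out mice jointly, were chosen after seeing the data.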

Additional observations from a re-analysis of the deposited data

Results flagged for a closer look

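Among 236 groups of 6 libraries (a gene or list within 1 genotype), 35 had a library set apart from the other 5, by a gap beyond Dixon's 95% critical value. Chance alone flags about 1 in 20 groups where values are normally distributed and groups are not chosen from the data. Most groups here are genes named from these same libraries, and genes of 1 list share their libraries, so that rate may not hold for any mouse. For mouse 23 that rate does not apply at all. Choroid plexus genes, here Clic6, Prlr and the summed list, are what singled this library out, and 7 further genes (Adcyap1, B2m, Cfap61, Necab2, Nxph4, Prelp and Rab38) were named from the fit without it. Its values describe that library and test nothing. Female WT mouse 23 stood apart in 14 groups, being highest, for Adcyap1 at 26.8 CPM (others 1.89 to 6.24), B2m at 93.3 CPM (others 58.6 to 70.1), Cfap61 at 4.19 CPM (others 0.256 to 1.34) and Clic6 at 88.4 CPM (others 0.795 to 25.1). The same library stood apart for Itih3 at 94.7 CPM (others 14 to 42.9), Necab2 at 80.0 CPM (others 47.9 to 54.2), Nxph4 at 9.61 CPM (others 0.149 to 1.19) and Pecam1 at 32.6 CPM (others 12.2 to 18.7). Mouse 23 also did so for Prelp at 36.4 CPM (others 16.7 to 20.1), Prlr at 87.6 CPM (others 1.33 to 8.76), Rab38 at 2.48 CPM (others 0.385 to 0.813) and Sox6 at 18.6 CPM (others 9.74 to 12.8). It did so as well for GABA neuron genes summed at 2387 CPM (others 1759 to 1915) and choroid plexus genes summed at 5402 CPM (others 78.3 to 1478). Male WT mouse 13 stood apart in 7 groups, being highest unless stated, for Dkk3 at 524 CPM (others 203 to 316), Fezf2 at 44.1 CPM (others 13.3 to 19.9) and Gm15536 at 0.663 CPM (lowest, others 0.930 to 1.05). The same library stood apart for Gm15564 at 16.4 CPM (others 1.28 to 4.41), Naaa at 48.1 CPM (others 34.5 to 37.3), Nr4a2 at 51.1 CPM (others 25.7 to 34.2) and Pde1a at 168 CPM (others 76.0 to 97.7). Female KO mouse 6 stood apart in 5 groups, being highest, for Ak7 at 12.2 CPM (others 0.402 to 4.23), B2m at 86.1 CPM (others 78.5 to 80.0), Hhatl at 11.7 CPM (others 7.15 to 8.76) and Rarres2 at 21.8 CPM (others 4.02 to 8.17). The same library stood apart for ependymal cell genes summed at 113 CPM (others 15.2 to 41.3). Female KO mouse 4 stood apart in 3 groups, being highest, for Gabrg3 at 27.4 CPM (others 12.5 to 17.6), circadian clock genes summed at 1808 CPM (others 1392 to 1541) and cerebral cortex layer genes summed at 1107 CPM (others 619 to 791). Male KO mouse 2 stood apart in 3 groups, being highest, for Efhc2 at 3.39 CPM (others 1.75 to 2.28), Fyb2 at 7.18 CPM (others 1.08 to 3.28) and Plk2 at 276 CPM (others 182 to 213). Male KO mouse 1 stood apart in 2 groups, being highest, for Tnnt1 at 16.9 CPM (others 1.08 to 4.16) and choroid plexus genes summed at 1173 CPM (others 80.1 to 168). Male KO mouse 10 stood apart once, being highest, for erythrocyte genes summed at 99.8 CPM (others 22.8 to 50.8).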

How the results depend on the processing

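Acss2 kept its direction and its call in all 24 alternatives of the pooled comparison, at log2 fold changes of -3.07 to -2.83 and a largest adjusted p of 0.000108 (edgeR or DESeq2), and 23 of the 24 called 1 gene. Without the low-count filter there were 2 calls in the pooled fit, 220 without mouse 23 (153 higher, 67 lower), 138 in the male table (36 higher, 102 lower), 1 for the difference between tables and 129 for that between dorsal and ventral hippocampus (19 higher, 110 lower); the cause was not tested. DESeq2 called 8 genes in the male table and 9 in the female table. Leaving out each mouse gave 0 to 167 calls in the female table and 0 to 2 for the difference between tables; both highest counts came without mouse 23. With 0 calls in the female table, the adjusted p of Acss2 by edgeR was 0.0866 to 0.677. With the pairing of regions by mouse as a block, both region comparisons kept 0 calls, with unadjusted counts (p under 0.05) of 482 and 265 genes, and the block changed no call. The difference of the Acss2 effect reversed between tables when single mice were left out, at -0.23 to 0.18, and between hippocampus and striatum likewise, at -0.17 to 0.11, at 0.063 without mice 10 and 23, and at 0.052 with the block as well. None of these differences was called. Among 2412 values of other named genes under an alternative, 2387 kept direction and side of the threshold, 16 newly passed it and 9 reversed. Reversed log2 fold changes without mice 23, 3 and 1 were 0.0050 for Aldh1a1, 0.92 for Clic6, 0.051 for Col1a1 and 0.11 for Hapln2. With a score as covariate they were 0.28 for Clic6 (choroid plexus), 0.16 for Col1a1 and 0.0021 for Hapln2 (thalamus and habenula). With the cortical layer score they were 0.082 for Lct and -0.00041 for Slc16a1. Clic6 is itself in the choroid plexus score. The depth of 629635 to 1206013 counts limits the ventral hippocampus comparison.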

Other observations

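Chromosome 2, which carries Acss2, held 1123 of the 14485 tested genes (7.75%) and 28 of the 412 genes at an unadjusted p under 0.05 (6.80%). Among the 20 genes with the smallest p it held 5 (25%), Acss2 included, and among the smallest 100 it held 10 (10%). These shares are given as values with no test.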
